A study of Oryza sativa with 20 samples.

Results

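Rice genes named for low temperature, dehydration and lipid transfer were followed through the first day of chilling: DRR2, which is also called LTI6B, salT, the DI19 genes and LTP. A feature of the array was taken as a member when its rice gene carried one of these names as symbol or synonym in the RefSeq annotation. The rule found 5 of the 6080 features, which stand for 5 of 3859 genes: 1 feature each for DRR2 (feature 4230, gene LOC4337750), salT (feature 3044, LOC4326471) and LTP (feature 1581, LOC4351318), and 1 each for 2 DI19 genes, DI19-4 (feature 4252, LOC4329107) and DI19-5 (feature 5531, LOC4323843). DI19 was read as the family name with its copy number. LTP and DI19-5 also stand on the list of upregulated genes that the study drew from these same slides by its fold rule, so their folds are not independent evidence of their direction.

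The study used shoots of seedlings at the S3 stage of CT6748-8-CA-17, a japonica rice cultivar that tolerates chilling. Seedlings held at 10°C for 0.5, 2, 6, 12 or 24 h were compared with seedlings kept at 29°C, and each time point had control RNA of its own. Chilled RNA was labelled with Cy3 and control RNA with Cy5, both were hybridised to one cDNA slide with each feature spotted in duplicate, and the 2 replicates of a time point were independent biological replicates, so that 10 slides gave 20 values for a gene. The labels name the same dye for each RNA on every slide, so a dye effect was not balanced and is part of each ratio.

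DRR2 encodes a small, very hydrophobic protein of the plasma membrane and belongs, with LTI6A, to a family known in rice and other plants for its response to cold. SalT is a mannose-binding lectin of the jacalin-related family and is known in rice for its response to salt and abscisic acid. DI19 proteins carry Cys2/His2 zinc fingers and were first described in Arabidopsis as products of a drought-induced gene. LTP is a non-specific lipid transfer protein, one of the small secreted proteins rich in cysteine that bind lipids in a hydrophobic cavity and are associated with the cuticle.

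Values are given as the log2 of the chilled signal divided by the control signal, so a positive value means more signal in the chilled shoots, and 1.8-fold, the threshold of the study, equals 0.85 on this scale. The table holds no intensities, so levels cannot be given, the shoot label cannot be checked by the level of marker genes, and signal over background is unknown. In whole shoots, fewer cells of a type and less RNA per cell cannot be told apart. A cDNA spot can also bind transcripts of close relatives of its gene, which was not tested.

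Over the 5926 features with a value in all 10 samples, the replicates correlated at r = 0.54 at 2 h, at 0.13 at 0.5 h, and at 0.42 to 0.46 at the later times. As deposited, replicate 2 at 2 h correlated at r = -0.54 with replicate 1, although its labels name the same dyes. The labels alone do not settle its direction. For DI19-5 at 2 h the study's own list gives 1.41-fold lower, the mean found here with the sign turned. With the sign as deposited the mean log2 ratio of DI19-5 at 2 h was -0.08. The list for this gene thus goes with the turned sign. The sign of replicate 2 at 2 h was turned here. The main values that rest on it are also given with the sign as deposited. The median log2 ratio of a slide lay between -0.01 and 0.55, with the highest on that same slide.

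DRR2 had the lowest mean ratio among these genes at any time point, and it came at 0.5 h. At 0.5 h its duplicate spots read -1.43 and -1.64 in replicate 1, and -0.95 and -1.02 in replicate 2. All 4 spots lay below 0, and the gene stood among the lowest 2% of features on both slides, as did 4 features in all (0.0675%). The mean log2 ratio was -1.26 ± 0.39 (SD, n = 2), a signal 2.40-fold lower in chilled shoots, with a 95% interval of -1.95 to -0.57. By limma the unadjusted p was 0.00176 and the adjusted p 0.0595, just above the threshold of 0.05. The fit used 1 estimate of the spread of a gene for all times. Over all features the median SD between replicates was 0.49 at 0.5 h and 0.24 to 0.34 at the other times. The p-values of the fit at 0.5 h may therefore be too small. The adjusted p was 0.0387 with the median of each slide set to 0, 0.0413 with the replicate number as a block, and 0.403 with the sign as deposited at 2 h.

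After 0.5 h the replicates of DRR2 were apart at first and then close to 0. At 2 h replicate 1 averaged -0.92 and replicate 2 averaged 0.04, or -0.04 with the sign as deposited. The pair at 6 h, -0.40 and 0.47, also lay on both sides of 0. At 12 h both replicates were above 0, with 0.07 and 0.39, and at 24 h they were 0.01 and 0.01. The mean log2 ratios at 2, 6, 12 and 24 h were -0.44, 0.04, 0.23 and 0.01, and none of them passed limma's test (adjusted p 0.448, 0.979, 0.804 and 0.994).

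SalT, the mannose-binding lectin, had positive ratios early and negative ratios at 12 h. At 0.5 h its spots read 1.02 and 0.98 in replicate 1, and 0.22 and 0.40 in replicate 2, with a mean log2 ratio of 0.66 ± 0.49 (SD, n = 2). At 2 h replicate 1 averaged 0.19 and replicate 2 averaged 0.31, or -0.31 with the sign as deposited, which brings the mean log2 ratio to -0.06. The replicates parted at 6 h, with 0.27 and -0.12. At 12 h the spots read -0.998 and -1.09 in replicate 1, and -0.43 and -0.34 in replicate 2, so that all 4 lay below 0 with a mean log2 ratio of -0.72 ± 0.46 (SD, n = 2). The replicates at 24 h were far apart, at -1.08 and 0.43. No time point passed limma's test for salT, with adjusted p of 0.357 at 0.5 h and 0.369 at 12 h as the lowest.

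DI19-4, a zinc-finger gene, had its higher ratios early with the sign turned at 2 h. Its spots read 0.51, 0.45, 0.69 and 0.89 at 0.5 h and 0.96, 0.70, 1.32 and 0.78 at 2 h, the first pair of each from replicate 1. All 8 of these spots lay above 0 with the sign turned at 2 h. At 6 h the replicates averaged 0.41 and 0.53, at 12 h -0.09 and 0.32, and at 24 h -0.02 and 0.77. The mean log2 ratio was highest at 2 h, 0.94 ± 0.15 (SD, n = 2), which is 1.91-fold, with an adjusted p of 0.0848 by limma. With the sign as deposited at 2 h, replicate 2 of DI19-4 averaged -1.05 and the mean log2 ratio was -0.11. With the slides scaled to a common spread the mean was 1.04 and passed (adjusted p = 0.0462).

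DI19-5, the other zinc-finger gene, took a different course in time. At 0.5 h its spots read -1.17 and -0.77 in replicate 1, and -0.13 and 0.16 in replicate 2. At 2 h all 4 spots lay below 0, with replicate averages of -0.58 and -0.42. With the sign as deposited, replicate 2 of DI19-5 read 0.42 at 2 h and the mean log2 ratio was -0.08. From 6 h on every spot lay above 0. The replicates of DI19-5 averaged 0.26 and 0.96 at 6 h, 0.77 and 1.25 at 12 h, and 0.38 and 1.15 at 24 h. The mean log2 ratios in order of time were -0.48, -0.50, 0.61, 1.01 and 0.77, and the highest, at 12 h, was 2.02-fold with an SE of 0.33. That value did not pass limma's test (unadjusted p = 0.00865, adjusted p = 0.151).

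LTP gave the highest ratio of any of the 5 genes and also the least even one. At 12 h its spots read 3.08 and 3.02 in replicate 1, and 1.33 and 1.37 in replicate 2. All 4 were past 1.8-fold, 99.8% of features had a lower ratio on the first slide and 98.4% on the second, and LTP was 1 of 12 features (0.202%) among the highest 2% on both. The mean log2 ratio was 2.20 ± 1.2 (SD, n = 2), a signal 4.60-fold higher in chilled shoots, with a 95% interval of 1.07 to 3.33. By limma the unadjusted p was 0.00103 and the adjusted p 0.0775. Without replicate 1 at 0.5 h the adjusted p was 0.0366, without replicate 2 at 0.5 h 0.0361, and without replicate 2 at 12 h 0.0453 at a log2 ratio of 3.05. Without replicate 1 at 12 h the log2 ratio of LTP was 1.35, with an adjusted p of 0.95, and with the sign as deposited at 2 h the adjusted p was 0.337.

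At the other times LTP ranged from opposed replicates to positive ones. At 0.5 h replicate 1 read -1.51 and -1.61 while replicate 2 read 1.08 and 0.99, which is the widest gap between replicates in these genes, and the mean log2 ratio of -0.26 describes neither. At 2 h the replicates averaged 0.00 and 0.07, or 0.00 and -0.07 with the sign as deposited. At 6 h both were above 0, with 0.71 and 1.28, and so were both at 24 h, with 1.23 and 0.32. The means at 6 and 24 h, 0.99 and 0.78, correspond to 1.99-fold and 1.71-fold and did not pass limma's test (adjusted p 0.568 and 0.46).

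**Figure D1:**
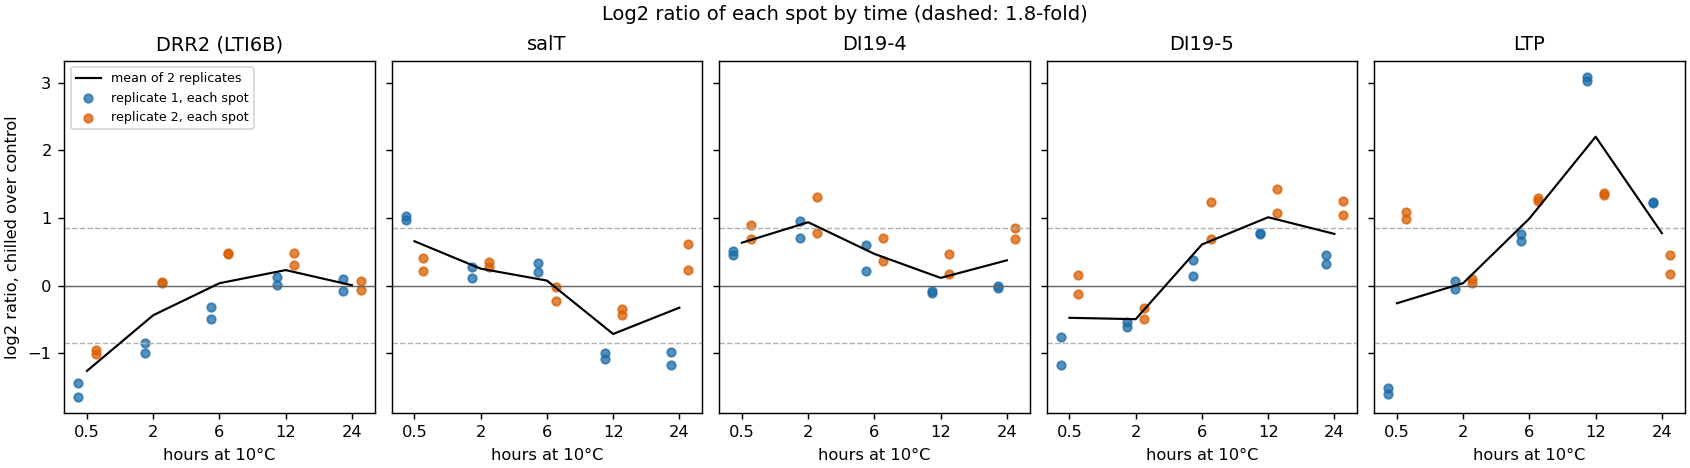
Log2 ratio of chilled over control shoots (y axis) against hours at 10°C (x axis) for each of the 5 genes. Points are the duplicate spots of replicate 1 and replicate 2, the line is the mean of the replicates, and the dashed lines mark 1.8-fold, with the sign of replicate 2 at 2 h turned. DRR2 lies lowest at 0.5 h, with a mean of -1.26, and LTP highest at 12 h, with a mean of 2.20.

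Duplicate spots agreed far better than biological replicates for most of these genes. For LTP the SD between duplicate spots was 0.08 and that between replicates 1.04, which is 12.7 times as large and larger than in 97.8% of features. The ratio of these SDs was 4.61 for DRR2, 4.49 for salT, 2.37 for DI19-5 and 1.57 for DI19-4, against a median of 1.86 over all features tested. The SD between replicates of DI19-4 depended on the sign at 2 h: it was 0.31, the smallest of the 5 genes, with the sign turned, and 0.67, second to LTP at 1.04, with the sign as deposited. As deposited the ratios were 4.43 for DRR2, 4.65 for salT, 2.83 for DI19-5, 3.37 for DI19-4 and 12.7 for LTP, against a median of 2.11. The replicates lay on one side of 0 in 17 of the 25 pairs of gene and time point, or 14 with the sign as deposited. None of the 5 genes had them on one side at all 5 times, as 15.8% of all features did, or 2.6% with the sign as deposited.

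**Figure D2:**
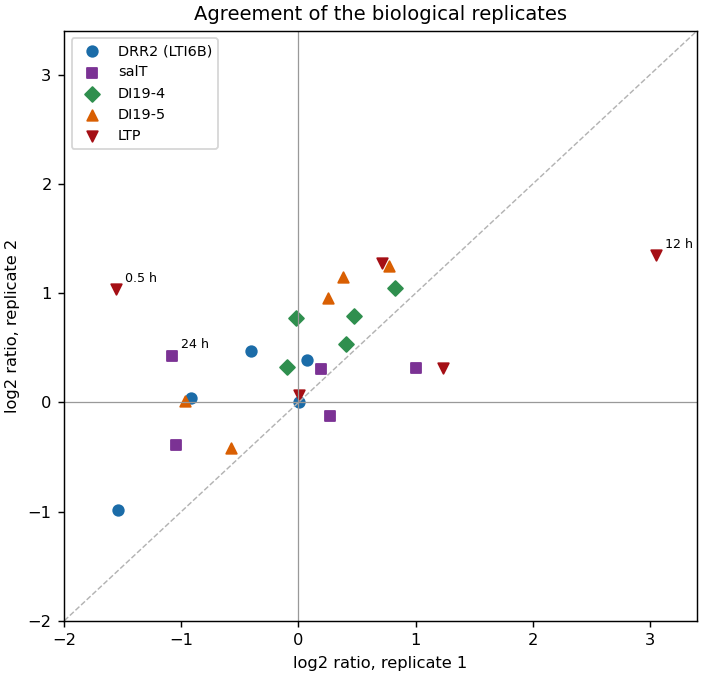
Log2 ratio of chilled over control in biological replicate 2 (y axis) against replicate 1 (x axis), 1 point for each gene and time point, each the mean of duplicate spots. The dashed line marks equal values and the labels give the time of the points farthest from it. LTP at 0.5 h, with -1.56 and 1.04, is the most distant.

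Counted over the 25 pairs, 0 passed limma's test after adjustment over all features, 6 had an unadjusted p under 0.05, and the lowest adjusted p was 0.0595, that of DRR2 at 0.5 h. With the sign as deposited at 2 h, 0 passed and 3 had an unadjusted p under 0.05. Among all features, 2.45%, 0.253%, 0.202%, 0.321% and 1.96% passed as higher in chilled shoots in order of time, and 0.0337%, 0%, 0%, 0.0506% and 0.202% as lower. Unadjusted p under 0.05 was reached by 15.3%, 21.5%, 9.21%, 13.1% and 16.1% of all features as higher at these times, and by 2.36%, 1.11%, 0.877%, 2.68% and 2.65% as lower. The 6 pairs were DRR2 and DI19-4 at 0.5 h, DI19-4 at 2 h, DI19-5 and LTP at 12 h, and DI19-5 at 24 h. By the mean fold alone, 4 pairs were 1.8-fold or more higher, namely DI19-4 at 2 h, LTP at 6 h, and LTP and DI19-5 at 12 h. The share of all features past that fold was 11.4%, 16.8%, 6.04%, 9.47% and 12.7% in the order of the times. The only pair at 1.8-fold or more lower was DRR2 at 0.5 h, where 0.928% of all features were that low, against 0.776%, 0.472%, 1.4% and 1.2% at the later times. With the median of each slide set to 0, 441 features were past the fold as higher and 167 as lower at 0.5 h, against 677 and 55 without, and 403 and 120 at 2 h, against 995 and 46. The fold was reached in each replicate alone by LTP at 12 h (3.59% of all features) and, as lower, by DRR2 at 0.5 h (0.253%). Any of the 5 times counted, 3 of the 5 genes were past 1.8-fold as higher and 1 as lower, against 29.5% and 3.64% of all features.

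**Figure D3:**
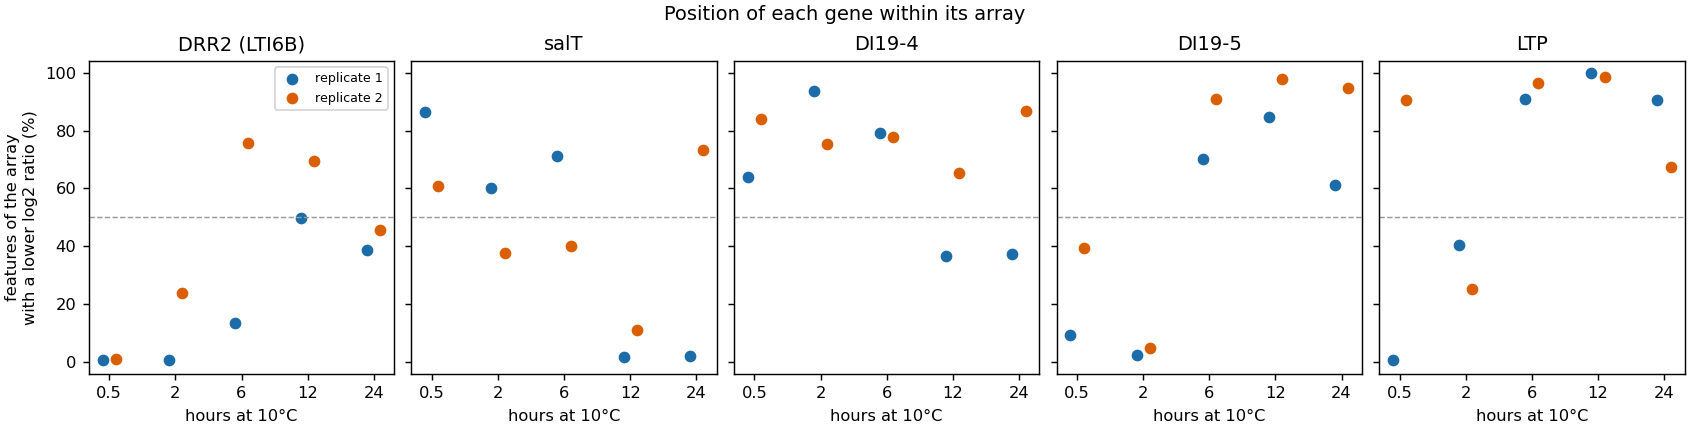
Share of the features of a slide with a lower log2 ratio than the gene (y axis, percent) against hours at 10°C (x axis), for each gene and replicate. The dashed line marks the middle feature. DRR2 lies at 0.895% and 1.2% at 0.5 h, and LTP at 99.8% and 98.4% at 12 h.

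Averaged over the 5 time points, DI19-4 and LTP were higher in chilled shoots. DI19-4 had a mean log2 ratio of 0.51 (1.42-fold, 95% interval 0.23 to 0.78) with an adjusted p of 0.00941 by limma, and was above 0 in 8 of 10 samples. LTP had a mean of 0.75 (1.68-fold, 95% interval 0.25 to 1.25) with an adjusted p of 0.0281, and was above 0 in 9 of 10 samples. Above the median of the slide, DI19-4 lay in 8 of 10 samples and LTP in 7. In this mean, 26.6% of all features passed as higher and 3.29% as lower, which is 1574 and 195 features, against 1126 and 708 with the median of each slide set to 0. The means of DI19-5, DRR2 and salT were 0.28, -0.29 and -0.01, and none of them passed (adjusted p 0.163, 0.151 and 0.963). An exact sign-flip permutation test over the 10 samples, two-sided with a smallest possible p of 0.00195, gave p = 0.00781 for DI19-4 and p = 0.0762 for LTP. With the slide medians taken off and the sign turned, this exact test gave p = 0.0137 for DI19-4 and p = 0.166 for LTP. Under the deposited sign the same exact test gave p = 0.127 for DI19-4 and p = 0.0879 for LTP.

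The 2 calls differed in how far they rested on single slides. For DI19-4 the mean kept its call without any one slide (adjusted p 0.00865 to 0.0372) and with the median of each slide set to 0 (0.37, adjusted p = 0.0415), but not with the sign of replicate 2 at 2 h as deposited (0.30, adjusted p = 0.357), where 0 of all features passed in either direction. LTP lost its call with that sign (0.74, adjusted p = 0.152), with the slide medians at 0 (0.61, adjusted p = 0.0687) and with the replicate number as a block (adjusted p = 0.0595). It also lost it without replicate 2 at 0.5 h (0.49, adjusted p = 0.0738), without replicate 1 or 2 at 2 h (0.76 and 0.74, adjusted p = 0.0595 and 0.083), without replicate 2 at 6 h (0.69, adjusted p = 0.067), and without replicate 1 at 12 h or at 24 h (0.58 and 0.66, adjusted p = 0.0814 and 0.0929).

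Times were then compared with each other, with 6, 12 and 24 h taken as late and 0.5 and 2 h as early. The 6 late samples of DI19-5 lay between 0.26 and 1.25 and the 4 early samples between -0.97 and 0.02, so the groups did not overlap. In all, 1.08% of features had every late sample above every early one. The late minus early difference of DI19-5 was 1.28 on the log2 scale (2.43-fold, SE 0.30, 95% interval 0.64 to 1.93). Its unadjusted p by limma was 0.000898 and its adjusted p 0.213. With the sign as deposited at 2 h the early samples of DI19-5 reached 0.42, the groups overlapped, and the difference was 1.07 (adjusted p = 0.905).

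For LTP the late samples lay between 0.32 and 3.05 and the early ones between -1.56 and 1.04, with a difference of 1.44 (SE 0.48, adjusted p = 0.361 by limma). That difference was 0.79 without replicate 1 at 0.5 h and 2.08 without replicate 2 at 0.5 h (adjusted p 0.59 and 0.0808). DRR2 had late samples between -0.40 and 0.47 and early samples between -1.54 and 0.04, with a difference of 0.94 (SE 0.29, adjusted p = 0.325). With the slide median taken off, its late samples lay between -0.40 and 0.45 and its early ones between -1.76 and -0.50 and did not overlap, as held for 2.63% of features on that scale, DI19-5 among them. On that scale with the sign as deposited, the early samples of DRR2 reached 0.50 and those of DI19-5 0.96, and both overlapped the late ones. The differences of salT, -0.78 (SE 0.33), and DI19-4, -0.47, ran the other way and did not pass (adjusted p 0.395 and 0.48). Under the deposited sign the differences were 1.47 for LTP, 0.96 for DRR2, -0.62 for salT and 0.06 for DI19-4 (adjusted p 0.905, 0.905, 0.931 and 0.992). Slide medians averaged 0.08 over the late and 0.26 over the early slides. With them set to 0 the difference was 1.45 for DI19-5, 1.11 for DRR2 and 1.61 for LTP (adjusted p 0.101, 0.139 and 0.273), and -0.60 for salT and -0.29 for DI19-4.

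**Figure D4:**
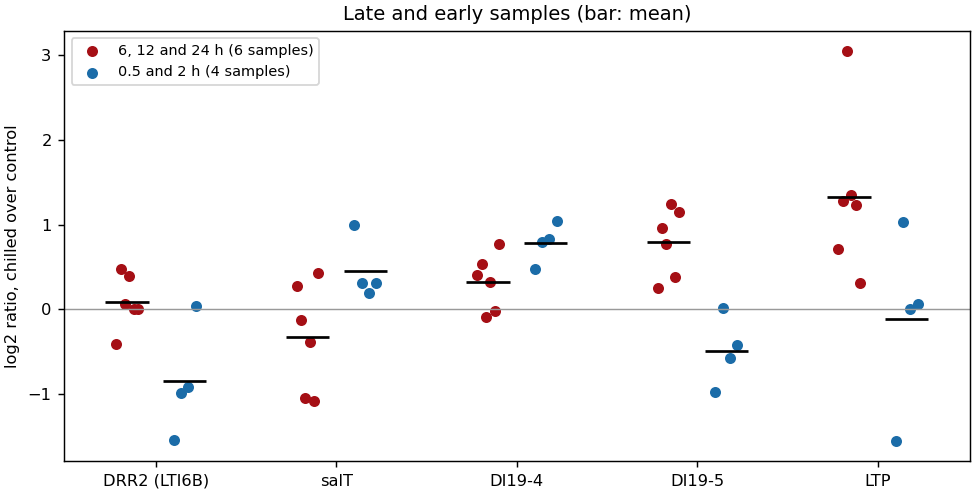
Log2 ratio of chilled over control (y axis) for each gene (x axis), with the 6 samples of 6, 12 and 24 h left of the 4 samples of 0.5 and 2 h, and bars at the group means. DI19-5 is the gene whose groups do not overlap, with late samples from 0.26 and early samples up to 0.02.

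Between single time points the largest differences were those of LTP. Its 12 h ratio exceeded that at 0.5 h by 2.46 and that at 2 h by 2.17, and its 24 h value minus its 12 h value was -1.43 (adjusted p 0.434, 0.821 and 0.999 by limma). The difference of LTP between 12 and 0.5 h passed without replicate 2 at 0.5 h (3.76, adjusted p = 0.0487) and was 1.17 without replicate 1 at 0.5 h. DI19-5 was 1.49 higher at 12 h than at 0.5 h and 1.51 higher than at 2 h, and DRR2 was 1.49 higher at 12 h than at 0.5 h (adjusted p 0.44, 0.821 and 0.434). With the sign as deposited at 2 h, DI19-5 was 1.09 higher at 12 h than at 2 h. For salT the 12 h value minus the 0.5 h value was -1.37 (adjusted p = 0.543). Over these 3 contrasts and the late minus early one, 0 of the 20 differences passed limma's test and 10 had an unadjusted p under 0.05, or 8 with the sign as deposited at 2 h. Of all features, 0% or 0.0169% passed in each direction of each contrast. An unadjusted p under 0.05 was held as higher and lower by 3.73% and 4.1% of features at 12 h against 0.5 h, by 2.06% and 3.66% at 12 h against 2 h, and by 3.73% and 8.13% late against early. The limma F test for any difference among the 5 times gave an unadjusted p of 0.0136 for DI19-5, 0.0392 for DRR2 and 0.0419 for LTP, as 4.72% of features had under 0.05, and no feature passed after adjustment. Under the deposited sign these p were 0.0889, 0.0571 and 0.0715, against 2.87% of features under 0.05.

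Across the 10 samples DRR2 and DI19-5 ran most alike of the pairs (r = 0.82) and salT and LTP most opposed (r = -0.85). DI19-5 and LTP correlated at r = 0.69, and salT and DI19-4 at r = 0.75, while the DI19 genes correlated at r = -0.38 with each other. The genes share slides, RNA and time points, so these values only describe the pattern. Under the deposited sign the same pairs, in this order, gave r = 0.93, -0.78, 0.65, 0.54 and -0.17. Among 703 named features, the nearest to DRR2 were OsCASPL1D1, PDX11 and cope1 (r = 0.92, 0.91 and 0.91). The nearest to salT were MCM7, GAPC and ARF3 (r = 0.92, 0.91 and 0.84), and the nearest to DI19-4 were ARF3, CYCB2 and AARE2 (r = 0.95, 0.94 and 0.93). For DI19-5 they were OsPRR95, AD709 and G6PGH1 (r = 0.91, 0.90 and 0.90), and for LTP IAA30, GPI-B and ASB1 (r = 0.96, 0.95 and 0.94). A correlation above 0.8 with the gene was held by 1.18% of all features tested for DRR2, 0.979% for salT, 3.98% for DI19-4, 0.709% for DI19-5 and 3.78% for LTP. Under the deposited sign the likeness was below 0.8 for OsCASPL1D1 and cope1 with DRR2 (0.71 and 0.74), ARF3 with salT (0.65) and ASB1 with LTP (0.79), and was 0.878 or more for the others.

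The wider list of cold and dehydration genes on the array held 9 features, 4 of them the members DRR2, salT, DI19-4 and DI19-5. None passed limma's test at any time point, and DI19-4 was the 1 that passed in the mean over the 5 times. The median log2 ratio of the list in order of time was -0.04, -0.03, 0.07, 0.11 and 0.01, against 0.14, 0.31, 0.02, 0.12 and 0.14 for all features tested. LTI6A, the close relative of DRR2, had mean log2 ratios of -0.52, -0.03, -0.44, -0.08 and -0.42. Its value at 0.5 h was the lowest (adjusted p = 0.428 by limma) but close to those at 6 and 24 h. The dehydrin gene LIP9 lay between 0.06 and 0.45, P5CS1, which encodes an enzyme of proline synthesis, between -0.65 and 0.36, and the germin-like genes GER2 and GER6 between -0.39 and 0.92. LTP was the only feature of the lipid transfer list.

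**Figure D5:**
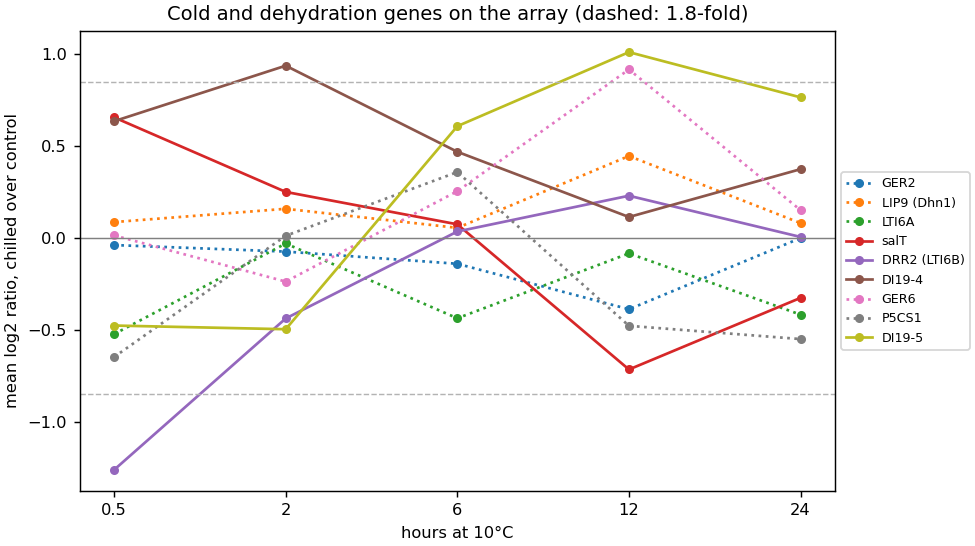
Mean log2 ratio of chilled over control (y axis) against hours at 10°C (x axis) for the 9 features of the cold and dehydration list. Solid lines are DRR2, salT, DI19-4 and DI19-5, dotted lines the other 5 genes, and dashed lines mark 1.8-fold. Past these lines lie DRR2 at 0.5 h, DI19-4 at 2 h, and DI19-5 and GER6 at 12 h.

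Genes of neighbouring functions were counted in the same way. Of the 3 transcription factor genes of cold and drought on the array (MYBS3, DREB2B and MYB4), none passed limma's test at any time. The highest value was 1.13 for MYB4 at 6 h. The study lists OsMyb4 as upregulated on these slides and places its induction at around 6 h. In the study's qPCR it was highest at 24 h. The MYB4 feature read -0.53 at 24 h, and whether both are the same locus was not tested. Of 12 genes of abscisic acid signalling, 1 passed as higher at 24 h, the phosphatase gene OsPP2C52 (1.37, adjusted p = 0.0478), where 1.96% of all features passed as higher, and 2 in the mean over the times, OsPP2C52 and OsPP2C28, where 26.6% of all features did. Of 7 water channel features, 1 for OsPIP2;2 passed at 0.5 h (1.86, adjusted p = 0.0439), where 2.45% of all features passed, and 4 in the mean over the times (26.6% of all features), among them both features of OsPIP2;2 (1.03 and 1.06). Marker genes of leaf, seed and root were few. Of 2 leaf photosynthesis genes FBP1 passed as lower at 24 h (-1.37, adjusted p = 0.0335, as did 0.202% of all features), of 7 seed and endosperm genes 0 passed at a single time and 2 in the mean (AMY3E and GLUA2, against 26.6%), and the array held none of the root genes sought. Their part in the results for DRR2, salT, DI19-4, DI19-5 and LTP was not tested.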

How the data were processed

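Shoot RNA was measured on 10 two-colour cDNA slides, 2 biological replicates at each of 5 time points. The authors deposited log2 ratios of chilled over control signal per spot set. By the study's methods these came from background-subtracted medians in Acuity and were normalised to a mean ratio of 1. The log2 values were used without further scaling. Slide medians, with the sign of replicate 2 at 2 h turned, were not 0 but lay between -0.01 and 0.55. Tests against 0 carry this offset. The second spot set of replicate 2 at 6 h has a source label that gives another time, and was kept at 6 h because its title and protocol give 6 h. Both columns of replicate 2 at 2 h were multiplied by -1. Of the values, 1876 are missing and 140 lie beyond 5 in size. None is missing for the 5 genes. The number of slides limits the precision.

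Duplicate spots were averaged. Then limma 3.58.1 in R 4.3.3 was fitted to 5926 features, those measured in all 10 samples, with 1 mean for each time point (5 residual and 7.81 prior degrees of freedom), and p-values were adjusted by Benjamini-Hochberg at 0.05 over all features of a comparison. The fold threshold of 1.8 was used as a description. The fit was tested on simulated data, with 200 of 5926 features changed at 12 h. It found 25 of them at a log2 change of 1, 197 at 2 and 200 at 3, with 1, 13 and 6 false calls. The simulated noise was independent, centred on 0 and of equal spread at all times. The real slides differ in this, so these counts may not hold for them. In the simulation a change near 1 at a single time point was thus mostly missed. Gene names came from the platform's gene identifiers through RefSeq: 4172 features had 1 gene, 97 several and 1811 none, and 710 had a gene name. All member genes are named, with the 3 named features most correlated with each and, from each gene list, the features highest or lowest in the mean over the times. GER2, GER6, P5CS1, LIP9 and LTI6A fall under this rule or were named as the rest of their list. The members and lists were chosen with earlier results of these data known.

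Alternatives were other scalings of the slides, either spot set alone, spots fitted singly with each slide as a random block, complete features only, robust estimation, averaging of linear ratios, removal of extreme values, the replicate number as a block, the doubtful column at 6 h left out, the sign as deposited at 2 h, fold thresholds of 1.5 and 2, and each slide left out. Position within the slide, and the spread, correlations, sign-flip and F tests with the sign as deposited, were added after the data had been seen. Features of one gene were not compared because each of these genes has 1 feature. Sequences and promoter motifs were not analysed here.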

Additional observations from a re-analysis of the deposited data

Results flagged for a closer look

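DI19-5 had all 4 spots above 0 at 6 h and at 24 h and all 4 below 0 at 2 h, which drew attention to its change in time. The mean log2 ratio at 6 h exceeded that at 2 h by 1.10, and the mean at 24 h exceeded that at 2 h by 1.26. These differences were not tested. With the sign of replicate 2 at 2 h as deposited, the spots of that replicate lay above 0 and the 2 h spots fell on both sides of 0.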

How the results depend on the processing

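The number of slides, 2 for each time point, limits every value here. With the sign as deposited at 2 h, DI19-4 was -0.11 at 2 h, 0.22 at 12 h minus 2 h and 0.056 late minus early, salT -0.058 and LTP -0.033 at 2 h, and the mean over the times was no longer called for DI19-4 (0.30) or LTP (0.74), so 0 of the genes passed in it. With the median of each slide set to 0, DRR2 was -0.11 at 24 h, LTP -0.27 and salT -0.056 at 2 h, DRR2 passed at 0.5 h (-1.44) and in the mean (-0.42, adjusted p = 0.029), LTP no longer passed in the mean (0.61), and 1 pair of gene and time point passed. With slides scaled to a common spread, DRR2 was -0.024 at 6 h, and 2 pairs passed, DI19-4 at 2 h (1.04) and LTP at 12 h (2.31, adjusted p = 0.025). The first spot set alone gave DRR2 -0.013 at 6 h and -0.0725 at 24 h and a mean of 0.039 for salT, and the second gave salT -0.01 at 6 h. With spots fitted singly and each slide as a random block, DRR2 passed at 0.5 h (-1.26), in the mean (-0.29) and late minus early (0.94), DI19-5 late minus early (1.28) and LTP at 12 h (2.20), 2 pairs in all. That fit assumed a shared correlation between duplicate spots for all features. The SD between replicates over that between spots was 4.61 for DRR2, 2.37 for DI19-5 and 12.7 for LTP, against a median of 1.86. Their duplicate spots may therefore have counted partly as added replicates, and the calls of that fit may be too liberal for them. That fit also kept only features with a value for every spot. The cause of these changes was not tested.

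Replicates share only a number between time points: over 10 pairs of time points their deviations correlated at -0.30 to 0.34, 5 of them above 0.1. With the replicate number as a block, DRR2 passed at 0.5 h (-1.26, 1 pair), LTP no longer passed in the mean (0.75), which left 1 gene, and no other call on these genes changed. By the fold alone, 9 pairs were higher and 2 lower at 1.5-fold, 2 higher at 2-fold, and 1 higher where each replicate had to reach it.

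Without any one slide, 0 to 1 pairs passed, 1 to 2 genes passed in the mean and 1 to 3 pairs were lower by the fold. LTP ranged from 1.35 to 3.05 at 12 h, from -1.56 to 1.04 at 0.5 h, from 1.17 to 3.76 at 12 h minus 0.5 h (passing at 3.76, without replicate 2 at 0.5 h) and from 0.49 to 1.01 in the mean. DI19-4 ranged from -0.094 to 0.32 at 12 h, -0.022 to 0.77 at 24 h and -0.14 to 0.66 at 24 h minus 12 h, DI19-5 from -0.97 to 0.017 at 0.5 h and -0.63 to 0.14 at 24 h minus 12 h, and DRR2 from -0.92 to 0.0445 at 2 h and -0.40 to 0.47 at 6 h. SalT ranged from -0.12 to 0.27 at 6 h, -1.08 to 0.43 at 24 h, -0.37 to 1.14 at 24 h minus 12 h and -0.16 to 0.14 in the mean. Over all alternatives, the features that passed as higher numbered 0 to 166 at 0.5 h, 0 to 457 at 2 h, 0 to 17 at 6 h, 0 to 172 at 12 h and 0 to 258 at 24 h, against 145, 15, 12, 19 and 116 in the fit given above. Those past 1.8-fold as higher at 2 h numbered 6 with the sign as deposited, against 995. With that sign 0 features passed at any single time.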
